A study of Rattus norvegicus with 743 samples.

Results

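Propranolol, a non-selective blocker of beta-adrenergic receptors, was given to 3 male Sprague Dawley rats at 400 mkd (read here as mg per kg and day) for 4 days, and their liver RNA was sequenced. Its reference was 4 male Sprague Dawley rats of the same study that received only the vehicle, Methylcellulose at 0.5percent (w/v) made up in Deionized Water, for 4 days. The members are the libraries labelled propranolol and the vehicle libraries with the same study, batch number 3 and vehicle, with 1 library for each animal. They are 3 and 4 of the 680 animals (743 libraries) of a series in which rats received drugs daily and were killed 24 hours after the final dose. The labels used here give no age, genetic change or time of day for these animals. The liver label fitted the markers: all 12 hepatocyte markers passed the count filter, and their summed level was 151500 to 180900 CPM (counts scaled to library size) in propranolol livers and 168000 to 198500 CPM in vehicle livers.

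Beta-adrenergic receptors act through a stimulatory G protein, adenylyl cyclase and cyclic AMP, and in liver cyclic AMP promotes glycogen breakdown and glucose production. The liver also clears propranolol: CYP2D enzymes hydroxylate its ring, CYP1A enzymes remove its side-chain alkyl group, and UGT enzymes add glucuronic acid. CYP1A genes are classic targets of the aryl hydrocarbon receptor (AhR), a ligand-activated transcription factor that binds xenobiotic response elements, and NRF2 switches on antioxidant and conjugation genes through antioxidant response elements.

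The promoter windows of 4 genes are shown because these genes changed and hold the core letters of the element named for their list. Each runs from 250 bases before to 50 bases after the gene start and comes from RefSeq, build GRCr8, with the match in capitals. The letters searched on both strands were GCGTG (xenobiotic response element core, Ugt1a6 and Nqo1), TGACNNNGC (antioxidant response element core, Me1) and CACGTG (the E-box bound by the clock activators, Tef).
Ugt1a6, chr9:96194768-96195067, plus strand: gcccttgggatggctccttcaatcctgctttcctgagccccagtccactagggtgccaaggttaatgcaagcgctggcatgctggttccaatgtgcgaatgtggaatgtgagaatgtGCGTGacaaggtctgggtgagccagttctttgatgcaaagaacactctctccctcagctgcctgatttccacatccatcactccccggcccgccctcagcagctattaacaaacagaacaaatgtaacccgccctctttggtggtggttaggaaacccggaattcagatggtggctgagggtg
Nqo1, chr19:52220218-52220517, minus strand: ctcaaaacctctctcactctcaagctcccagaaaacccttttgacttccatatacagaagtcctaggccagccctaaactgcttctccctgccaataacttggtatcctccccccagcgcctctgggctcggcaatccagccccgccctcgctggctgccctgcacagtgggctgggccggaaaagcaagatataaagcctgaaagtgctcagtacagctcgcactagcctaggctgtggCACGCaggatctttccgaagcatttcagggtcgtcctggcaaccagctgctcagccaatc
Me1, chr8:96540195-96540494, minus strand: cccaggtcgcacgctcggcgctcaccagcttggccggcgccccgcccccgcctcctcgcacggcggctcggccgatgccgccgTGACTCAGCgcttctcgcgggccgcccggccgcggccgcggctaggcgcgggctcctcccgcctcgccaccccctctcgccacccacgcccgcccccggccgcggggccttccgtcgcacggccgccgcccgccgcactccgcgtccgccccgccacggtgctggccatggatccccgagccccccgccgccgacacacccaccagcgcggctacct
Tef, chr7:115206577-115206876, plus strand: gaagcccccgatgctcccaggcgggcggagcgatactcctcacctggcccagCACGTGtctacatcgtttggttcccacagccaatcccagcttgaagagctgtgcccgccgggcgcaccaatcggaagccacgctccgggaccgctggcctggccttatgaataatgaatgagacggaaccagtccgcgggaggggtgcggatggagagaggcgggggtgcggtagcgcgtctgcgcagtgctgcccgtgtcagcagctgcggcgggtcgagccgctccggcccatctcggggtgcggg
The matches begin at position -133 of Ugt1a6, -10 of Nqo1 (on the other strand, so it reads as the reverse complement), -167 of Me1 and -198 of Tef, counted from the gene start. Of the 4 AhR targets that rose, 3 had a window in the table and 2 of these held GCGTG, as did 4 of the 5 tested targets with a window and 32.4% of all 27457 genes with 1 or more windows. Of the 9 NRF2 targets that rose, 7 had a window and 3 held TGACNNNGC, as did 9 of the 21 tested targets with a window and 13.1% of all genes. Of the 5 clock genes that changed, 4 had a window and 1 held CACGTG, as did 4 of the 15 tested clock genes with a window and 7.1% of all genes.

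The deposited values used for tests were expected counts per gene, with totals of 17.3 to 21.6 M counts for the 7 livers. A gene counts as changed where edgeR's quasi-likelihood test gave an adjusted p under 0.05. Of 12754 genes tested, 284 (2.23%) changed, 175 of them higher (1.37%) and 109 lower (0.855%) in propranolol livers. Treated livers resembled each other less than vehicle livers did: log2 CPM over 10225 genes correlated at 0.916 to 0.961 between propranolol animals and at 0.971 to 0.981 between vehicle animals. Propranolol replicate 2 had the highest of the 3 treated values in 105 of the 175 higher genes and the lowest in 66 of the 109 lower genes, and propranolol replicate 1 stood apart on the second principal component (21.3% of the variance).

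The number of changed genes turned on single animals, and each leave-out below is a refit. It was 1939 without propranolol replicate 1, 98 without propranolol replicate 2, 225 without propranolol replicate 3, and 28, 86, 59 and 29 without vehicle replicates 1, 2, 3 and 4. Of the 284 genes, 282 to 284 kept their direction in each of the 7 refits, but 19 passed in all 7. A gene that the count filter dropped in a refit was not counted as kept. In all 284, every treated liver was already on 1 side of every vehicle liver. A kept direction could therefore hardly fail when an animal was left out, and it is no separate support. RNA integrity numbers were 8.5, 8.7 and 8.5 in propranolol livers, against 8.3, 7.8, 7.2 and 8.5 in vehicle livers. With that number as a covariate edgeR called 0 genes, while 1667 had an unadjusted p under 0.05 and all 284 kept their direction. The 3 lowest numbers were those of vehicle livers, so RNA integrity and treatment cannot be fully told apart. The names of the raw read files put the 3 propranolol libraries on 1 flow cell together with vehicle replicates 1 and 4. Within that flow cell 3 genes passed, and all 283 changed genes that could be fitted there kept their direction. As the groups of these genes do not overlap, that direction too could hardly turn. For each propranolol change given with its SE, the count of refits out of 7 in which it passed is given. Other changed genes are given with a fold change alone. Of these, Acsm5, Cd163, Ephx1, Orm1, Serpina3c and Slc3a2 passed in 1 refit, and Ccnd1, Cyp3a62 and Nat8f2 in 2. Car12, Cyp3a9, Gstm1, Nptx2, Slc16a6, Slc25a30, Slc6a6 and Tk1 passed in 3, Fabp7 and Rgs3 in 4, and Stat3 in 5.

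AhR targets held the gene with the largest fold change among those that passed. Of the 6 tested, 4 rose (beside 1.37% of all genes tested) and 0 fell, with a median log2 fold change of 2.34 beside 0.02 over all genes tested. Cyp1a1, an AhR-induced monooxygenase that is nearly silent in untreated liver, had 79.4, 31.3 and 84.6 CPM in propranolol livers, against 0.566, 1.27, 0.459 and 0.821 CPM in vehicle livers. Every treated liver was far above every vehicle liver, and the log2 fold change was 6.38 ± 0.46 (SE, edgeR adjusted p = 0.00286, 7 of 7 refits). Cyp1a2, the constitutive CYP1A enzyme of liver, had 3205, 1044 and 2040 CPM in propranolol livers, against 479, 637, 426 and 381 CPM in vehicle livers. The groups did not overlap, propranolol replicate 2 was the lowest of the treated livers, and the log2 fold change was 2.12 ± 0.36 (SE, edgeR adjusted p = 0.0297, 2 of 7 refits). Ugt1a6, which glucuronidates phenolic compounds, had 86.5, 116 and 136 CPM in propranolol livers, against 18.7, 14.1, 17.3 and 27.3 CPM in vehicle livers. All treated livers were above all vehicle livers, with a log2 fold change of 2.55 ± 0.25 (SE, edgeR adjusted p = 0.00612, 7 of 7 refits). The Ugt1a genes share their last exons, so that reads are divided among them by estimate. Nqo1, a quinone reductase, had 49.6, 222 and 193 CPM in propranolol livers, against 14.5, 33.2, 27.2 and 20.5 CPM in vehicle livers. Propranolol replicate 1 was nearest to the vehicle livers, and the log2 fold change was 2.70 ± 0.51 (SE, edgeR adjusted p = 0.0455, 1 of 7 refits). Ugt1a7c, another glucuronosyltransferase (log2 fold change 0.90 ± 0.24 (SE, edgeR adjusted p = 0.0784, 1 of 7 refits)), and Tiparp, an ADP-ribosyltransferase that restrains AhR (log2 fold change 0.68 ± 0.43 (SE, edgeR adjusted p = 0.356, 0 of 7 refits)), did not pass. Cyp1b1, Aldh3a1 and Ahrr were too low to be tested.

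**Figure D1:**
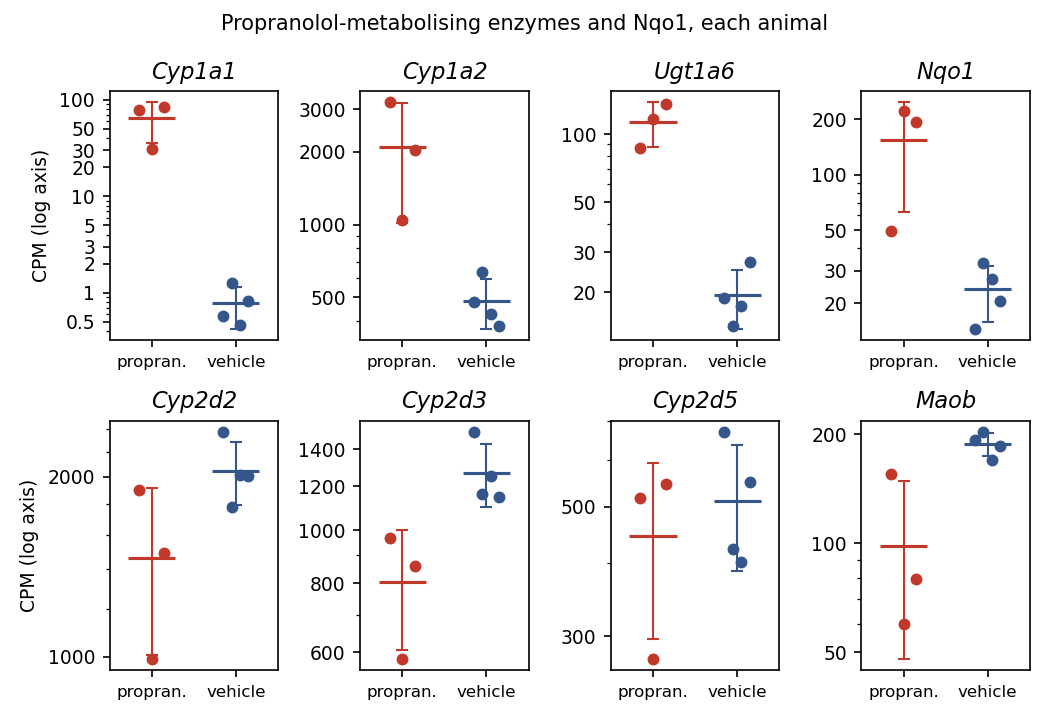
CPM (log axes) of 8 genes in each animal, propranolol at the left and vehicle at the right of each panel, with lines at the mean and bars of 1 SD (n = 3 and n = 4). Cyp1a1, Cyp1a2, Ugt1a6 and Nqo1 are higher in every propranolol liver, while Cyp2d2, Cyp2d3, Cyp2d5 and Maob did not pass the test.

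The other enzymes that act on propranolol did not pass. Of the 13 in that list, 3 rose (Cyp1a1, Cyp1a2 and Ugt1a6), 0 fell and 10 did not pass, with a median log2 fold change of -0.17. Over all genes tested 1.37% rose and 0.855% fell. The CYP2D genes resemble each other closely, so reads may be shared among them. Cyp2d2 had 1899, 992 and 1494 CPM in propranolol livers, against 2375, 1780, 2012 and 2005 CPM in vehicle livers. The groups overlapped, and the log2 fold change was -0.48 ± 0.24 (SE, edgeR adjusted p = 0.258, 0 of 7 refits). Cyp2d3 had 966, 584 and 862 CPM in propranolol livers, against 1505, 1161, 1254 and 1150 CPM in vehicle livers. All 3 treated livers were below all vehicle livers, but the log2 fold change of -0.66 ± 0.22 (SE, edgeR adjusted p = 0.125, 1 of 7 refits) missed the threshold. Cyp2d4 and Cyp2d5 had log2 fold changes of -0.25 and -0.20, with overlapping groups. Monoamine oxidases Maoa and Maob, which deaminate amines, had log2 fold changes of -0.01 and -0.93. The sulfotransferase Sult1a1 (0.85), the glucuronosyltransferase Ugt1a1 (0.81), the aldehyde dehydrogenase Aldh2 (-0.17) and the male-specific steroid hydroxylase Cyp2c11 (-1.07) complete those that missed it. Of the 13, 4 were higher and 3 lower in every treated animal than in every vehicle animal, beside 11.4% and 11% of all genes tested.

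Per transcript length, in the authors' fragments per kilobase of transcript and library size (FPKM), Cyp1a2 was far more abundant than Cyp1a1. Cyp1a2 averaged 1070 ± 482 FPKM in propranolol livers and 243 ± 46.4 FPKM in vehicle livers (SD, n = 3 and n = 4). Cyp1a1 averaged 24.9 ± 11.2 FPKM in propranolol livers and 0.289 ± 0.125 FPKM in vehicle livers. Cyp2d2 averaged 877 ± 224 FPKM in propranolol livers and 1208 ± 162 FPKM in vehicle livers. The mean level of Cyp1a2 was thus above that of Cyp2d2 in propranolol livers, within their spread, and below it in vehicle livers. In bulk RNA, fewer cells of a type and less RNA per cell cannot be told apart.

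Several NRF2 targets rose. Of 26 tested, 9 rose and 0 fell, beside 1.37% and 0.855% of all genes tested, and the median log2 fold change was 0.75. Of the 26, 14 were higher and 2 lower in every treated animal than in every vehicle animal, beside 11.4% and 11% of all genes tested. Gsta3, a glutathione transferase, had 35.6, 33.0 and 39.5 CPM in propranolol livers, against 2.83, 5.36, 2.18 and 3.06 CPM in vehicle livers. The treated values lay close together, and the log2 fold change was 3.42 ± 0.28 (SE, edgeR adjusted p = 0.00286, 7 of 7 refits). Hmox1, which breaks down heme, had 95.4, 245 and 257 CPM in propranolol livers, against 39.7, 28.4, 43.8 and 26.5 CPM in vehicle livers. All treated livers were higher, with a log2 fold change of 2.52 ± 0.35 (SE, edgeR adjusted p = 0.0193, 3 of 7 refits). Srxn1, which repairs oxidised peroxiredoxins, had 5.92, 4.70 and 3.92 CPM in propranolol livers, against 1.18, 0.332, 0.688 and 0.931 CPM in vehicle livers. Its levels were low throughout, and its log2 fold change was 2.61 ± 0.38 (SE, edgeR adjusted p = 0.0193, 5 of 7 refits). Me1, the cytosolic malic enzyme that supplies NADPH, had 79.3, 159 and 91.2 CPM in propranolol livers, against 23.2, 27.7, 26.2 and 35.9 CPM in vehicle livers. Its log2 fold change was 1.96 ± 0.26 (SE, edgeR adjusted p = 0.017, 5 of 7 refits). The pentose phosphate gene Tkt (0.95), the epoxide hydrolase Ephx1 (0.74), the transferase Gstm1 (1.20) and Nqo1 were also among the 9. Gclm and Gclc, the subunits of the first enzyme of glutathione synthesis, did not pass: their log2 fold changes were -1.32 (edgeR adjusted p = 0.0512) and -0.21. Osgin1, another NRF2 target, had -1.41 and did not pass.

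The lists of CAR and PXR targets, nuclear receptors that sense drugs, held 3 and 2 genes that passed, beside 2.23% of all genes tested. Of 14 CAR targets 3 rose, which are the transferases and the hydrolase that also stand in the NRF2 list, and 0 fell (median 0.19). Cyp2b1, the classic CAR target of rat liver, had 11.2, 3.07 and 14.5 CPM in propranolol livers, against 45.8, 6.47, 67.9 and 27.5 CPM in vehicle livers. The groups overlapped and the log2 fold change of -1.94 ± 0.80 (SE, edgeR adjusted p = 0.191, 0 of 7 refits) missed the threshold. Of 9 PXR targets 1 rose, Cyp3a9 (1.82), and 1 fell, Cyp3a62 (-1.30), both CYP3A monooxygenases, and Cyp3a23/3a1 had a log2 fold change of -0.03. PPARalpha targets (28 tested, median -0.33), cholesterol synthesis genes (26, median -0.25) and genes of the lysosome and phospholipidosis (39, median -0.04) held 0 genes that passed in edgeR, with 10, 1 and 13 at an unadjusted p under 0.05. Over all 12754 genes tested, 3086 had an unadjusted p under 0.05. Propranolol is a cationic amphiphilic drug, a class known for phospholipidosis, the storage of phospholipid in lysosomes.

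**Figure D2:**
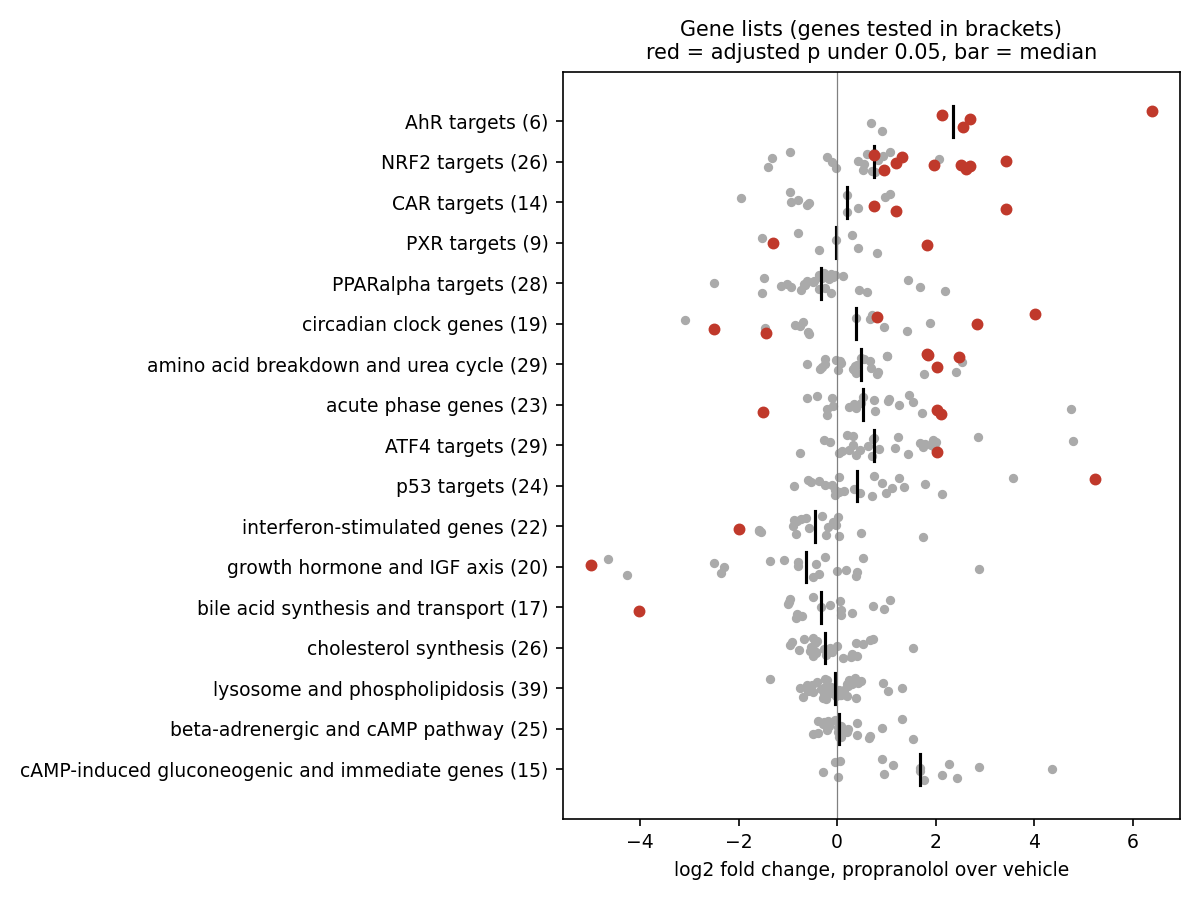
Log2 fold changes (propranolol over vehicle, horizontal axis) of the genes tested in 17 lists, 1 point a gene; red points passed at an adjusted p under 0.05 and black bars are list medians. AhR and NRF2 targets lie mostly right of 0 with 4 and 9 red points, and the lysosome, cholesterol and beta-adrenergic lists hold none.

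Circadian clock genes changed in opposite directions. Of 19 tested, 3 rose and 2 fell, beside 1.37% and 0.855% of all genes tested. In every treated animal 5 were higher and 7 lower than in every vehicle animal, beside 11.4% and 11% of all genes. Arntl, which encodes the activator BMAL1, had 43.4, 39.7 and 22.8 CPM in propranolol livers, against 0.896, 1.93, 2.12 and 3.78 CPM in vehicle livers. Every treated liver was several-fold above every vehicle liver, with a log2 fold change of 4.02 ± 0.43 (SE, edgeR adjusted p = 0.00984, 7 of 7 refits). Npas2, a partner of BMAL1, had 21.2, 10.5 and 3.96 CPM in propranolol livers, against 1.65, 1.71, 1.21 and 2.02 CPM in vehicle livers, a log2 fold change of 2.84 ± 0.50 (SE, edgeR adjusted p = 0.0346, 2 of 7 refits). Clock, the other partner, had 50.4, 54.9 and 44.1 CPM in propranolol livers, against 27.3, 22.7, 29.5 and 34.3 CPM in vehicle livers. It rose by less, with a log2 fold change of 0.81 ± 0.16 (SE, edgeR adjusted p = 0.0464, 1 of 7 refits). Per3, a repressor of the loop, had 6.12, 8.78 and 15.4 CPM in propranolol livers, against 53.2, 66.1, 55.1 and 53.6 CPM in vehicle livers. It was lower in every treated liver, with a log2 fold change of -2.50 ± 0.30 (SE, edgeR adjusted p = 0.014, 7 of 7 refits). Tef, an output transcription factor, had 42.5, 35.5 and 55.5 CPM in propranolol livers, against 135, 118, 108 and 123 CPM in vehicle livers, and its log2 fold change was -1.44 ± 0.18 (SE, edgeR adjusted p = 0.0144, 5 of 7 refits). Dbp, a related output factor, had 4.73, 20.5 and 44.9 CPM in propranolol livers, against 241, 271, 153 and 126 CPM in vehicle livers. The groups did not overlap, yet its log2 fold change of -3.08 ± 0.71 (SE, edgeR adjusted p = 0.069, 2 of 7 refits) missed the threshold. The repressor Per2 (log2 fold change -1.46, edgeR adjusted p = 0.0548) missed it narrowly.

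**Figure D3:**
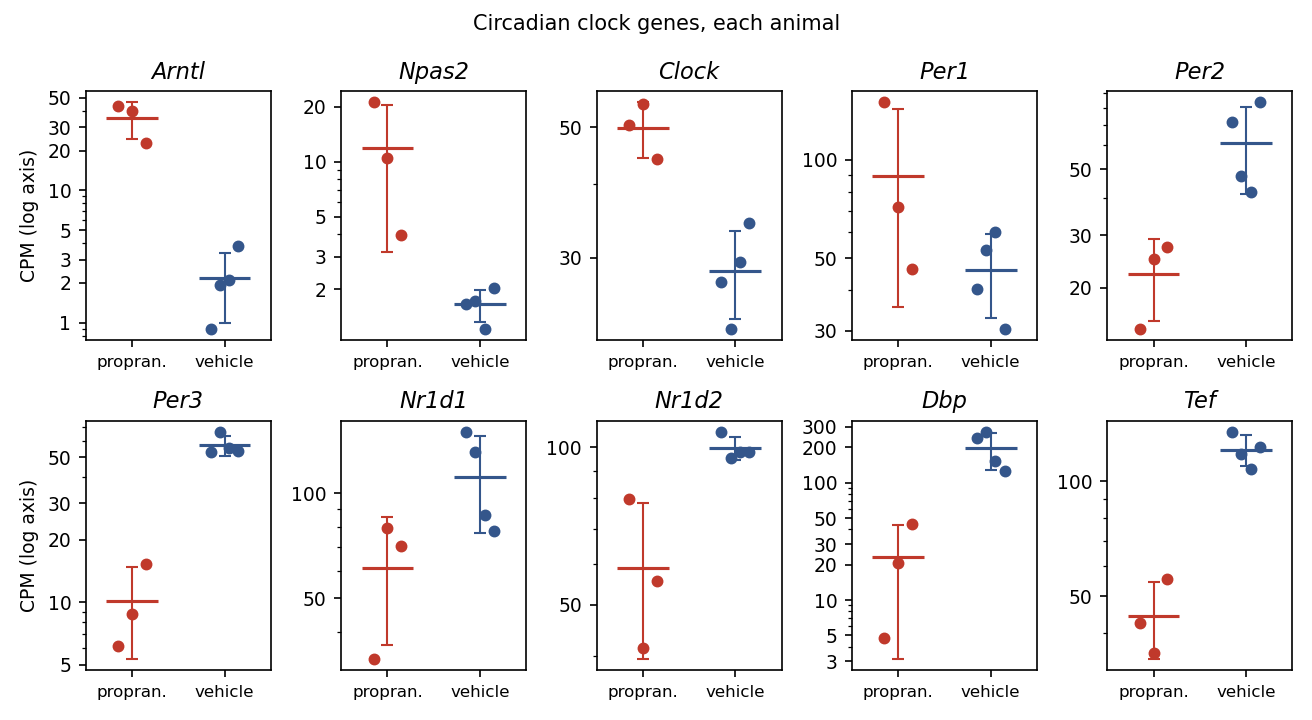
CPM (log axes) of 10 clock genes in each animal, propranolol at the left and vehicle at the right of each panel, with lines at the mean and bars of 1 SD (n = 3 and n = 4). Arntl, Npas2 and Clock are higher, and Per2, Per3, Nr1d2, Dbp and Tef are lower, in every propranolol liver, of which Per2, Nr1d2 and Dbp missed the threshold.

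The vehicle livers of this study lay near the edge of the 83 vehicle groups of the series for the changed clock genes and Dbp: for each of these 6, between 1 and 5 of the other 82 groups lay farther from the propranolol level than the study's own vehicle did. The group mean of Arntl was 34.3 CPM in propranolol livers and 2.12 CPM in their vehicle livers, beside a median of 34.1 CPM over vehicle groups (all groups scaled together), and 2 of the other 82 groups lay below their own vehicle. Among the other 82 groups, 1 holds libraries of 3 of the same vehicle animals under batch number 10, so it is no separate set of animals. Scaled separately, Arntl averaged 1.47 CPM in these libraries. Dbp was 22.8 CPM in propranolol livers and 192 CPM in their vehicle livers, beside a median of 12.0 CPM over vehicle groups, and 2 of the 82 were higher than their own vehicle. Per3 was 9.81 CPM in propranolol livers and 55.4 CPM in their vehicle livers, beside a median of 6.48 CPM. The propranolol values of these 3 genes were thus near the middle of the pooled vehicle groups, and among these the low or high value was that of the vehicle livers. The pool mixes strains, sexes, days and vehicles, and Sprague Dawley groups were not taken apart. In the fits with other drugs below, Arntl averaged 12.2 CPM in Sprague Dawley vehicle livers (nadolol study) and 49.4 CPM in Han Wistar vehicle livers (labetalol study). The labels give no time of death within the day, and its part in the result was not tested.

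Of the other large changes, some shared that pattern and some did not. Cdkn1a, which encodes the cell cycle inhibitor p21 and was chosen with its value known, had 83.7, 60.6 and 13.0 CPM in propranolol livers, against 1.08, 0.995, 2.29 and 1.20 CPM in vehicle livers. All treated livers were higher, propranolol replicate 3 least so, with a log2 fold change of 5.23 ± 0.66 (SE, edgeR adjusted p = 0.0188, 5 of 7 refits). Its mean of 50.9 CPM stood against 1.35 CPM in vehicle livers, while the median vehicle group had 17.5 CPM and 1 of 82 reached the propranolol level. Hsd17b2, which oxidises estradiol and testosterone, had 71.8, 8.06 and 25.7 CPM in propranolol livers, against 1501, 1314, 979.7 and 679 CPM in vehicle livers. It was lower in every treated liver, with a log2 fold change of -4.99 ± 0.79 (SE, edgeR adjusted p = 0.029, 2 of 7 refits). The median vehicle group had 59.5 CPM, and 1 of 82 was higher than the vehicle livers of this study. The 82 include the batch number 10 libraries of 3 of the same vehicle animals, which averaged 1432 CPM of Hsd17b2 when scaled separately. Slc6a6, Mx1 and Oat, described below, shared the pattern too. For these, 2, 4 and 4 of the 82 groups lay farther from the propranolol mean than the study's own vehicle did. That mean was reached by 28, 21 and 12 groups. For Cyp1a1, Ugt1a6, Nqo1 and Hmox1, 0 of the 82 vehicle groups reached the propranolol mean, and 17, 40, 31 and 71 lay farther from it than the study's own vehicle did. Cyp1a2 and Gsta3 shared with the clock genes only a vehicle group near the edge. For each, 3 of the 82 groups lay farther from the propranolol mean than the study's own vehicle. Their propranolol mean was reached by 2 of the 82 groups, beside 15 (Tef) to 58 (Clock) for the changed clock genes and Dbp. Cyp1a2 averaged 2035 CPM in propranolol livers and 467 CPM in their vehicle livers, beside a median of 915 CPM over vehicle groups, and Gsta3 averaged 35.0 CPM in propranolol livers and 3.26 CPM in their vehicle livers, beside a median of 8.31 CPM.

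Slc1a4, a transporter of small neutral amino acids, was among the 12 largest increases. It had 232, 37.7 and 35.1 CPM in propranolol livers, against 3.16, 3.92, 2.98 and 3.50 CPM in vehicle livers. Propranolol replicate 1 was far above the other 2, and the log2 fold change was 4.90 ± 0.73 (SE, edgeR adjusted p = 0.0261, 3 of 7 refits). Gadd45b, a stress-response gene, had 128, 20.9 and 15.2 CPM in propranolol livers, against 3.25, 2.98, 5.11 and 2.299 CPM in vehicle livers. It was again highest in propranolol replicate 1, with a log2 fold change of 4.00 ± 0.78 (SE, edgeR adjusted p = 0.0496, 2 of 7 refits). Cxcl1, a neutrophil-attracting chemokine, had 19.6, 20.0 and 28.1 CPM in propranolol livers, against 2.88, 0.718, 0.459 and 1.20 CPM in vehicle livers, a log2 fold change of 4.07 ± 0.52 (SE, edgeR adjusted p = 0.0167, 6 of 7 refits). Sarm1, which encodes an NAD-cleaving enzyme, had 21.9, 51.5 and 17.6 CPM in propranolol livers, against 3.07, 2.49, 2.70 and 2.74 CPM in vehicle livers, a log2 fold change of 3.46 ± 0.37 (SE, edgeR adjusted p = 0.00974, 7 of 7 refits). The remaining large increases were Slc16a6 (3.72), a monocarboxylate transporter family member, Nptx2 (3.63), a pentraxin, Slc6a6 (3.59), the taurine transporter, and Car12 (3.45), a carbonic anhydrase.

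**Figure D4:**
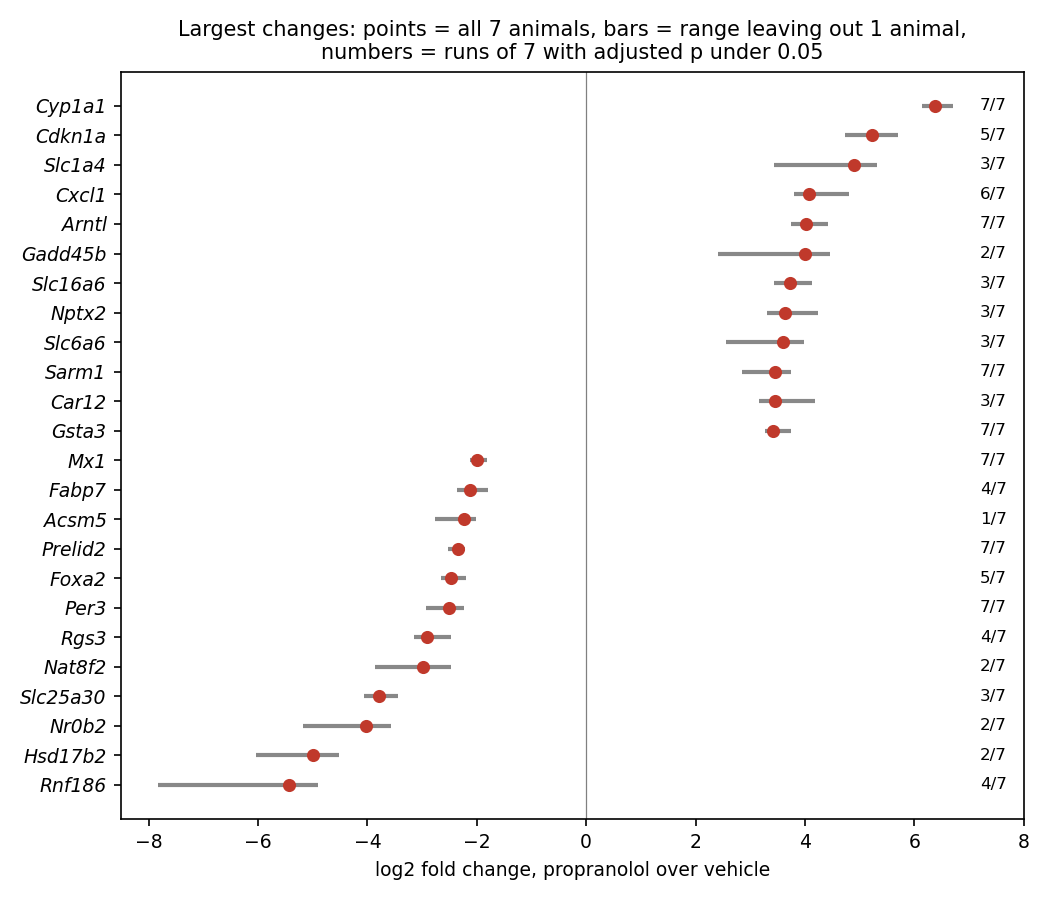
Log2 fold changes (propranolol over vehicle, horizontal axis) of the 12 largest increases and 12 largest decreases named by rule. The rule took only genes without overlap between the groups, so a bar could hardly cross 0. Points are the fit of all 7 animals, bars the range of the 7 refits that each leave out 1 animal, and numbers at the right count the refits that passed; no bar crosses 0, and Cyp1a1, Arntl, Sarm1, Gsta3, Per3, Prelid2 and Mx1 passed in 7 of 7.

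Nr0b2, which encodes SHP, the repressor that bile acids induce, was among the 12 largest decreases. It had 9.72, 1.20 and 2.88 CPM in propranolol livers, against 72.5, 53.8, 97.7 and 73.6 CPM in vehicle livers. All treated livers were lower, with a log2 fold change of -4.02 ± 0.67 (SE, edgeR adjusted p = 0.0346, 2 of 7 refits). It was the only one of 17 bile acid genes tested to pass in edgeR, beside 2.23% of all genes tested. Cyp7a1, which starts the classic route from cholesterol to bile acids, had a log2 fold change of 0.73 ± 0.76 (SE, edgeR adjusted p = 0.579, 0 of 7 refits). Foxa2, a transcription factor of hepatocytes, had 7.46, 16.0 and 16.1 CPM in propranolol livers, against 67.6, 98.6, 54.95 and 74.3 CPM in vehicle livers, a log2 fold change of -2.48 ± 0.32 (SE, edgeR adjusted p = 0.0164, 5 of 7 refits). Rnf186, a ubiquitin ligase gene, had 0, 0.0480 and 0.405 CPM in propranolol livers, against 6.93, 9.06, 8.55 and 3.94 CPM in vehicle livers. The count of 0 in propranolol replicate 1 allows up to 0.154 CPM (3 counts, counting error only), and the fitted log2 fold change of -5.44 ± 0.74 (SE, edgeR adjusted p = 0.0188, 4 of 7 refits) depends on how such a count is treated. Prelid2, whose product belongs to a family of mitochondrial lipid transfer proteins, had 8.85, 6.67 and 5.81 CPM in propranolol livers, against 32.9, 40.8, 42.4 and 28.9 CPM in vehicle livers, a log2 fold change of -2.35 ± 0.21 (SE, edgeR adjusted p = 0.00433, 7 of 7 refits). The others were Slc25a30 (-3.78), a mitochondrial carrier, Nat8f2 (-2.99), whose values are identical to those of LOC100910829 so that their reads cannot be separated, Rgs3 (-2.91), a regulator of G protein signalling, Acsm5 (-2.24), an acyl-CoA synthetase, and Fabp7 (-2.12), a fatty acid binding protein.

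Of 29 amino acid breakdown and urea cycle genes 4 rose (beside 1.37% of all genes tested) and 0 fell, with a median log2 fold change of 0.49. In every treated animal 13 were higher than in every vehicle animal, beside 11.4% of all genes. Bhmt, which remethylates homocysteine, had 7451, 5928 and 7867 CPM in propranolol livers, against 1042, 2130, 1214 and 701 CPM in vehicle livers. The groups were well apart, with a log2 fold change of 2.48 ± 0.35 (SE, edgeR adjusted p = 0.0193, 4 of 7 refits). Oat, ornithine aminotransferase, had a log2 fold change of 2.03 ± 0.29 (SE, edgeR adjusted p = 0.0193, 4 of 7 refits), Arg1, the final enzyme of the urea cycle, 1.85 ± 0.30 (SE, edgeR adjusted p = 0.0265, 3 of 7 refits), and Aass, which starts lysine breakdown, 1.82 ± 0.29 (SE, edgeR adjusted p = 0.0251, 2 of 7 refits). Of 23 acute phase genes 2 rose and 1 fell, beside 1.37% and 0.855% of all genes tested. Those that rose were Stat3 (2.11), the transcription factor of that response, and Orm1 (2.03), a plasma glycoprotein. Serpina3c (-1.51), a protease inhibitor, fell. In every treated animal 9 of the 23 were higher and 2 lower than in every vehicle animal, beside 11.4% and 11% of all genes. Lcn2, which encodes lipocalin 2, had 2.73, 58.6 and 7.21 CPM in propranolol livers, against 0.613, 0.884, 1.15 and 0.766 CPM in vehicle livers, and its log2 fold change of 4.74 ± 1.03 (SE, edgeR adjusted p = 0.0626, 1 of 7 refits) missed the threshold.

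The next 5 lists held 1 to 3 genes each that passed, beside 2.23% of all genes tested. Of 24 p53 targets only Cdkn1a passed, while the list's median was 0.41 and 11 had an unadjusted p under 0.05; Mdm2, the feedback inhibitor of p53, had a log2 fold change of -0.25 ± 0.12 (SE, edgeR adjusted p = 0.235, 0 of 7 refits), and Ccng1, another target, 1.25 ± 0.34 (SE, edgeR adjusted p = 0.0855, 1 of 7 refits). Of 29 ATF4 targets 1 rose, Slc3a2 (2.03), the heavy chain of amino acid exchangers, while Chac1, which degrades glutathione, had 109.8, 2.64 and 14.1 CPM in propranolol livers, against 1.32, 1.82, 2.47 and 0.547 CPM in vehicle livers. That gene missed the threshold, and propranolol replicate 1 was the highest. The median of the ATF4 targets was 0.74, 26 of the 29 had a positive log2 fold change and 15 had an unadjusted p under 0.05, beside 3086 of the 12754 genes tested. Of 23 proliferation genes Tk1 (1.65), thymidine kinase, rose, and Ccnd1 (-1.53), cyclin D1, and Cdc20 (-1.88), a mitotic activator, fell. Of 22 interferon-stimulated genes Mx1, an antiviral GTPase, fell with a log2 fold change of -2.0 ± 0.25 (SE, edgeR adjusted p = 0.0144, 7 of 7 refits), and the list's median was -0.44. Of 20 growth hormone and IGF genes only Hsd17b2 passed. Cish, a feedback inhibitor of growth hormone signalling, had 6.28, 0.624 and 0.450 CPM in propranolol livers, against 47.0, 98.0, 65.6 and 32.6 CPM in vehicle livers. It was lower in every treated liver, but its log2 fold change of -4.65 ± 0.95 (SE, edgeR adjusted p = 0.0559, 1 of 7 refits) missed the threshold, as did that of Socs2 (-4.26), a related inhibitor.

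The remaining lists held 0 to 2 genes that passed, beside 2.23% of all genes tested. Glucocorticoid-responsive genes held 2 that rose of 21 (Cdkn1a and Gadd45b, median 0.96), immediate early genes 1 of 18 (Gadd45b, median 1.03) and fatty acid synthesis genes 1 of 17 (Me1, median 0.44), and none of the 3 lists held a gene that fell. In edgeR 0 passed of 20 ER chaperones (4 at an unadjusted p under 0.05), 14 heat shock genes (5), 24 genes of fasting and glucose metabolism (8), 25 apolipoproteins and plasma proteins (4), 19 stellate and matrix genes (2) and 14 stress hepatokines (7). These unadjusted counts stand beside 3086 of the 12754 genes tested.

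No gene of the pathway that the drug blocks passed in edgeR. Of 25 tested genes of the beta-adrenergic and cyclic AMP pathway 0 passed, with a median log2 fold change of 0.03. An unadjusted p under 0.05 was found for 4 of them, beside 3086 of the 12754 genes tested. Adrb1, the beta-1 receptor, had 0.617, 0.480 and 0.405 CPM in propranolol livers, against 0.236, 0.663, 0.229 and 0.383 CPM in vehicle livers, a log2 fold change of 0.40 ± 0.48 (SE, edgeR adjusted p = 0.627, 0 of 7 refits). Adrb3 had 0 counts in all 7 livers, and Adra1a had 1 count in 1 of them. Adra1b, the alpha-1B receptor, averaged 19.5 ± 11.2 FPKM in propranolol livers and 23.2 ± 4.63 FPKM in vehicle livers (SD, n = 3 and n = 4), against under 1 FPKM for Adrb1 in every liver. Its log2 fold change was -0.27 ± 0.46 (SE, edgeR adjusted p = 0.737, 0 of 7 refits). The protein kinase A regulatory subunit Prkar2a (1.53) was higher in every treated liver and missed the threshold (edgeR adjusted p = 0.0769).

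Genes that cyclic AMP induces also held none that passed among 15 tested (5 had an unadjusted p under 0.05, beside 3086 of all 12754), with a median log2 fold change of 1.68. Propranolol replicate 1 was the high animal for several of them. Nr4a1, an early nuclear receptor gene, had 52.0, 0.912 and 2.21 CPM in propranolol livers, against 0.896, 0.663, 0.918 and 1.09 CPM in vehicle livers. Only replicate 1 stood clearly above the vehicle livers. Sik1, a kinase of the same response, had 461, 15.1 and 27.5 CPM in propranolol livers, against 32.4, 26.9, 42.2 and 23.4 CPM in vehicle livers. Igfbp1, a secreted binding protein of IGF, had 1157, 107 and 286 CPM in propranolol livers, against 52.5, 28.5, 165 and 37.0 CPM in vehicle livers. The same animal was highest for both, while Pck1, a controlling enzyme of gluconeogenesis, had a log2 fold change of -0.29 ± 0.46 (SE, edgeR adjusted p = 0.724, 0 of 7 refits). Btg2 and Chac1 were also highest in that animal, at 588 and 109.8 CPM.

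Summed markers of other cell types overlapped between the groups or were lower in propranolol livers. Summed neutrophil markers were 1.18 to 8.42 CPM in propranolol livers and 0.712 to 12.8 CPM in vehicle livers. Lymphocyte markers were 18.5 to 22.1 CPM in propranolol livers and 25.3 to 33.0 CPM in vehicle livers. Kupffer cell and macrophage markers were 648 to 686 CPM in propranolol livers and 702 to 849 CPM in vehicle livers, although Cd163 (0.88), a scavenger receptor, rose. Erythroid markers were 142 to 416 CPM in propranolol livers and 223 to 540 CPM in vehicle livers. Pancreas markers were 5.42 to 9.11 CPM in propranolol livers and 7.45 to 16.3 CPM in vehicle livers, with 2 of 7 at 0 in every liver. The part of these levels in the results above was not tested.

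Nadolol, another non-selective beta blocker, was given at 600 mkd for 4 days to 4 male Sprague Dawley rats, with 4 vehicle rats of its own study. Labetalol, which blocks alpha-1 and beta receptors, was given at 600 mkd for 4 days to 4 male Han Wistar rats, with 4 vehicle rats of its own study that had 2 libraries each. Doses differ from that of propranolol, as do strain and batch number for labetalol, so the differences tested here are between these experiments. No gene passed in edgeR for either drug: nadolol had 0 of 12626 (6.95% at an unadjusted p under 0.05, while DESeq2 called 23) and labetalol had 0 of 12917 (7.55% at an unadjusted p under 0.05, while DESeq2 called 74).

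The difference of the 2 changes, propranolol minus nadolol, passed for 87 of 13322 genes (0.653%), 65 of them positive (0.488%) and 22 negative (0.165%). Of the 87, 70 were among the 284, but both tests use the same propranolol and vehicle livers, so such overlap is partly built in. Cyp1a1 differed most, with a log2 fold change of 6.38 for propranolol and 0.07 for nadolol, a difference of 6.34 ± 1.22 (SE, edgeR adjusted p = 0.0437). Sarm1 differed by 3.26 ± 0.45 (SE, edgeR adjusted p = 0.00748), Hmox1 by 2.85 ± 0.38 (SE, edgeR adjusted p = 0.00748) and Stat3 by 2.27 ± 0.29 (SE, edgeR adjusted p = 0.00748). Gadd45b (5.10), Spsb1 (3.67), a SOCS-box protein gene, and Tubb6 (3.40), a tubulin, were the other largest positive differences. Acsm5 (-2.60), Prelid2 (-2.42), Gbp7 (-2.33), Hsdl2 (-1.71) and Rad51d (-1.69) were the largest negative ones. Arntl was not among them: its log2 fold change was 4.02 for propranolol and 1.36 for nadolol, and the difference of 2.67 ± 0.71 missed the threshold (SE, edgeR adjusted p = 0.0851). Vehicle levels differed between the studies: Arntl averaged 36.6 CPM in propranolol livers and 2.26 CPM in their vehicle livers, and 31.2 CPM in nadolol livers and 12.2 CPM in theirs. Acsm5 averaged 33.5 CPM in propranolol livers and 158 CPM in their vehicle livers, and 654 CPM in nadolol livers and 509 CPM in theirs.

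The difference propranolol minus labetalol passed for 633 of 13259 genes (4.77%), 390 of them with a positive difference (2.94%) and 243 with a negative one (1.83%). Of the 633, 220 were among the 284, an overlap that the shared propranolol and vehicle livers again favour. Cyp1a1 differed by 5.96 ± 1.13 (SE, edgeR adjusted p = 0.0146) and Arntl by 3.98 ± 0.41 (SE, edgeR adjusted p = 0.00133). Chac1 (6.74), Slc1a4 (5.94), Ugt1a2 (5.83), a glucuronosyltransferase, and Nr4a1 (5.65) were the other largest positive differences. Their propranolol levels spread widely, at 41.0 ± 57.3, 98.9 ± 110, 38.4 ± 58.1 and 17.9 ± 28.4 CPM in that order (SD, n = 3). Their labetalol log2 fold changes were -1.97, -1.04, 0.57 and -1.30 in that order. Chac1 and Nr4a1 did not pass against propranolol's own vehicle. Rnf186 (-6.54), Hsd17b2 (-5.46), Nr0b2 (-4.59), Slc13a2 (-3.87), a dicarboxylate transporter, and Zfp871 (-3.70), a zinc finger gene, were the largest negative differences. For Zfp871 the log2 fold change was -0.89 for propranolol and 2.79 for labetalol. The vehicle level behind some of the differences was unlike between the studies. Hsd17b2 had 1087 CPM in the propranolol vehicle livers and 19.2 CPM in the labetalol vehicle livers, and Arntl had 2.12 and 49.4 CPM in those groups.

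Among 98 comparisons of 95 treatments with their own vehicles, fitted alone, propranolol ranked 50 by number of changed genes (the median was 313 and the highest 6032). By the number of genes whose group means differed by at least 1 on the log2(CPM + 1) scale it ranked 23. The 46 named genes ranked here were picked for their own change after propranolol, and no other treatment had genes picked this way. High ranks were thus favoured in advance. Of the 46, the propranolol log2 fold change was the most extreme in its direction for 8: Cdkn1a, Arntl, Slc6a6, Rnf186, Slc25a30, Rgs3, Foxa2 and Prelid2. For Cdkn1a the next was telcagepant (3.50), for Arntl telithromycin (3.09) and for Prelid2 fluoxetine (-2.06). The AhR targets were less unusual: Cyp1a1 ranked 16 of 95, with TCDD, the prototype AhR ligand, highest at 12.00, Cyp1a2 ranked 5 of 98 behind omeprazole at 4.13 among others, and Ugt1a6 ranked 26. These ranks carry no test, the comparisons differ in animals, strain and dose, and for Cdkn1a, Arntl, Slc6a6, Rgs3 and Foxa2 at most 2 of the 82 other vehicle groups lay farther from the propranolol level than the study's own vehicle did.

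**Figure D5:**
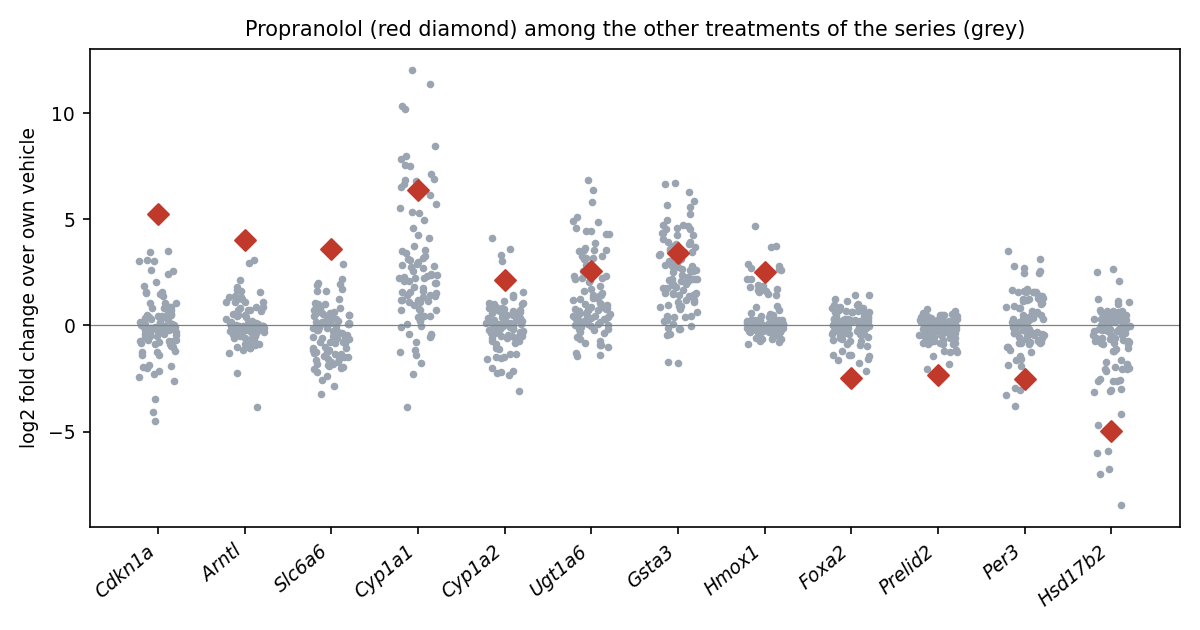
Log2 fold changes over the own vehicle (vertical axis) of 12 genes, propranolol as red diamonds and every other comparison of the series in which the gene was tested as grey points. Propranolol is the highest point for Cdkn1a, Arntl and Slc6a6 and the lowest for Foxa2 and Prelid2, and lies inside the range for Cyp1a1, Cyp1a2, Ugt1a6, Gsta3, Hmox1, Per3 and Hsd17b2.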

How the data were processed

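Total RNA from frozen rat liver was made into TruSeq Stranded mRNA libraries, per the labels' protocols. The authors deposited expected counts per Ensembl gene, not scaled to library size, and FPKM per gene; the genome build was Rnor 6.0 per the submitters' processing notes, and the aligner and counter are not given in the sources used here. The deposited table of sample details names the raw read files, from which flow cells were read. Expected counts were rounded to whole numbers and tested with edgeR 4.0.16 (R 4.3.3; filterByExpr, TMM, robust quasi-likelihood F test, two-sided, Benjamini-Hochberg over all genes tested, threshold 0.05), after a test on simulated data. CPM use the total counts, 17.3 to 21.6 M, multiplied by TMM factors of 0.927 to 1.070. SE is the fold change divided by the root of F. Libraries of 1 animal were summed. Each replicate is a separate animal per the labels. Of 655 symbols in gene and marker lists, 613 matched by symbol, 5 by another symbol and 37 not. The members, lists and tests were chosen with earlier results of these data known. Genes were named by rule: all receptors and metabolising enzymes, the 12 largest increases and 12 largest decreases with a symbol, no overlap and a mean of at least 5 CPM in the higher group, up to 4 changed members of each list with that level, list-defining members that did not pass, and the 5 largest differences in each direction from each other drug; 23 changed genes with placeholder symbols were passed over. Some genes that this rule names are not reported here. Vehicle groups and comparisons of the series were fitted or averaged in the same way. Alternatives were RLE scaling, DESeq2 1.42.0, no count filter, the authors' deposited expected counts over RefSeq genes, RNA integrity as covariate, 1 fit over all male Sprague Dawley groups of batch number 3, vehicle libraries of batch number 10, each animal left out, and, chosen after seeing the data, the propranolol flow cell alone.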

Additional observations from a re-analysis of the deposited data

Results flagged for a closer look

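Among 58 vehicle groups of named genes, 2 held an animal far from the other 3, by Dixon's ratio of its gap to the group's range at the 95% level, which chance gives in about 1 of 20 groups. Vehicle replicate 3 had 2.29 CPM of Cdkn1a, beside 0.995 to 1.20 CPM in the other vehicle livers and 13.0 to 83.7 CPM in propranolol livers. Vehicle replicate 2 had 66.1 CPM of Per3, beside 53.3 to 55.1 CPM in the other vehicle livers. Both genes kept their direction without that animal, which groups without overlap make nearly certain. The range over all refits was 4.73 to 5.70 for Cdkn1a and -2.93 to -2.23 for Per3 on the log2 scale.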

How the results depend on the processing

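The count of genes changed by propranolol (284) was 1402 with DESeq2, 0 with RNA integrity as covariate, 2219 in 1 fit over the male Sprague Dawley groups of batch number 3, 3788 against the vehicle libraries of batch number 10 and 3 within the propranolol flow cell; leaving out 1 animal gave 28 to 1939. Named genes and list members that passed (52) were 150, 0, 151, 199 and 1 in the same settings, and 11 to 152 without 1 animal. RLE scaling, no filter and the RefSeq table gave 284, 341 and 374. The fit against batch number 10 also crosses batches, because all propranolol libraries are of batch number 3. Those vehicle libraries also had lower RNA integrity numbers than every propranolol library. That fit therefore does not separate treatment from batch and RNA integrity. The nadolol difference (87) was 698 with DESeq2, 191 with the RefSeq table and 26 to 1398 without 1 animal, and the labetalol difference (633) was 1405, 266 with RNA integrity as covariate and 234 to 2207 without 1 animal. The series rank of 50 was 23 on the log2(CPM + 1) scale. Fold changes that turned sign were those of Maoa (0.01 with the RefSeq table, 0.03 in the 1 fit, -0.07 to 0.05 without 1 animal), Cyp2d5 (0.54 with batch number 10, -0.37 to 0.05 without 1 animal) and, with batch number 10, Cyp2d3 (0.20), Cyp2d4 (1.90) and Aldh2 (1.61), none of which had passed. The cause was not tested. No paired analysis was possible because replicate numbers were given in accession order and pair no animals. Depth limits the low genes: 3 counts are 0.135 to 0.172 CPM.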
